A study of Rattus norvegicus with 10 samples.

Results

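The blood vessels of the hippocampal CA1 region were followed through 37 genes that mark their cells, 27 of endothelial cells and 10 of mural cells, out of 32545 genes in the count table. The genes were chosen by name, as established markers of these cells, but with earlier results of these data known. Their counts beside shares of all genes are therefore descriptions and not independent tests. A row with the gene's name was present for 36 of the 37. RNA was taken from CA1, dissected from hippocampal slices of male Wistar rats, in 5 groups of 2 libraries. The SKF group received SKF38393, an agonist of the dopamine D1 and D5 receptors. The SKF+Aβ group received SKF and oligomers of amyloid-beta, the peptide that accumulates in Alzheimer's disease. SKF+Aβ+CSP received in addition CSP, a carbon nanosphere made from glucose that served as the vehicle. SKF+Aβ+CSP-TTK21 received SKF, Aβ and the nanosphere loaded with TTK21, which activates CBP and p300, enzymes that acetylate histones. The CSP-TTK21 group received the loaded nanosphere with neither SKF nor Aβ. All slices had a period of basal stimulation before the drugs and were collected 1 h after them, and the untreated group is not analysed here. Each repeat was made from 2 slices, taken from 2 biological samples, and vessels in such slices carry no blood flow.

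Endothelial cells line the vessel and, in the brain, seal it with tight and adherens junctions and move glucose, lipids and hormones across it with dedicated transporters. They read vascular growth factors, angiopoietins and BMP ligands through receptor proteins that few other cells make, and a set of ETS and SOX transcription factors keeps these genes on. Pericytes wrap the capillaries, depend on the PDGF receptor beta, and regulate the barrier, while smooth muscle cells wrap arterioles with a contractile apparatus. In a bulk sample such as CA1 tissue, fewer vascular cells and less RNA per vascular cell cannot be told apart.

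Receptor and surface genes of the endothelium were low together in one group, as described further on. The stretch before the start site is shown for 5 endothelial members, picked by the letters in their windows and not by the size of their difference. RefSeq promoter windows of assembly GRCr8, 250 bases before to 50 bases after the start, were found for 22 of the 37 members, 15 endothelial and 7 mural. The letters GGAAGT, the core that ETS factors such as Erg, Fli1 and Ets1 bind with a T after it, were searched on both strands. They stood in 22.6% of all 33469 windows, and in those of 5 of the 15 endothelial members (Flt1, Kdr, Tie1, Eng and Egfl7) and 1 of the 7 mural members (Rgs5). The shorter letters GGAAG, which every GGAAGT contains, stood in 70.1% of all windows, in 12 of the 15 endothelial and in 4 of the 7 mural ones. Nos3, Robo4 and Flt4, with larger differences further on, held GGAAG but not GGAAGT. Shares of all windows are counted per window and those of members per gene. The 250 bases before the start of those 5 endothelial genes, 5′ to 3′ on the gene's strand, are given with GGAAGT or its reverse complement ACTTCC in capitals, and, in Flt1, also TGACGTCA, the full cAMP response element. They lie at chr12:12333180-12333429 (plus strand), chr14:32571813-32572062 (plus), chr5:137304982-137305231 (minus), chr3:36332029-36332278 (plus) and chr3:29805381-29805630 (plus).
Flt1: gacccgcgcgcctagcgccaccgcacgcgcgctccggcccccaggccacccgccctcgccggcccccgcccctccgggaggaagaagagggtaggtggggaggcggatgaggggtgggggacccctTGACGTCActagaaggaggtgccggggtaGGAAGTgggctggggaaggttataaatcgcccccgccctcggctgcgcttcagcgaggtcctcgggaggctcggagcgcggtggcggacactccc
Kdr: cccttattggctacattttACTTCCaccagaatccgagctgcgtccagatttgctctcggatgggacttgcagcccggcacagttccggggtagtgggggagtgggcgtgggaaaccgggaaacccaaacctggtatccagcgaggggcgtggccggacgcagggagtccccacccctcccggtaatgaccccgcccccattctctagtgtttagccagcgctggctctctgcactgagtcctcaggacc
Tie1: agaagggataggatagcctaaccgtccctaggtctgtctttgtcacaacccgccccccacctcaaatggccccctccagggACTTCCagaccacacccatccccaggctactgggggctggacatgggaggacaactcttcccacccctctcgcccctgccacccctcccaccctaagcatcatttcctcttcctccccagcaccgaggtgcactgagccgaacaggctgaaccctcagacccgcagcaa
Eng: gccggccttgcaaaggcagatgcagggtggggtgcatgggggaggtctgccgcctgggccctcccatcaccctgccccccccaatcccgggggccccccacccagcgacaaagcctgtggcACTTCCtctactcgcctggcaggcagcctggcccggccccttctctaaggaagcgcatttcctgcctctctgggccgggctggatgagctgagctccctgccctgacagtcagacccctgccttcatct
Egfl7: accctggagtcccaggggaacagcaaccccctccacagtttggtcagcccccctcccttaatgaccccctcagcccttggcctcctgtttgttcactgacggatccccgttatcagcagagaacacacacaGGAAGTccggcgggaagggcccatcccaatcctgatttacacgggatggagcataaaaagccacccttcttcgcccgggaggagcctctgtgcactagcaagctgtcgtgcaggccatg
The capitals of GGAAGT or ACTTCC begin 95 bases before the start in Flt1, 231 in Kdr, 169 in Tie1, 129 in Eng and 119 in Egfl7. The element TGACGTCA, which CREB, a partner of CBP, binds, begins 124 bases before the start of Flt1 and stood in 1.83% of all windows. Its first letters TGACG, which TGACGTCA contains, stood in 21.2% of all windows and in those of Egfl7, Flt1, Pltp and Notch3. No member's window held CCGGAAG (8.75% of all windows), CACGTG (6.42%) or the CArG box of smooth muscle genes (1.64%). These are matches of letters, and whether a factor sits on them was not measured.

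Total counts were between 6753742 and 8473407 per library, a depth at which 3 counts correspond to 0.354 to 0.444 CPM, counts scaled to a common library total. Normalized CPM are CPM adjusted by edgeR's TMM factors. Of the 36 members with a row, 33 passed edgeR's filter on low counts, 24 endothelial and 9 mural. Cldn5, the main tight junction protein of brain endothelium, had 0 counts in all 10 libraries, which by counting error alone allows up to 0.354 to 0.444 CPM. The annotation and strand setting of the counts are not given, so this 0 is uncertain and is not read as absence from the tissue. Sox18, a transcription factor of endothelial cells, had 0 to 6 counts, and Anpep, a surface peptidase of pericytes, had 2 to 11 counts; neither was tested. Pecam1, the adhesion protein CD31, is not analysed here. Flt1 for endothelium and Pdgfrb for mural cells were counted in every library.

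The summed level of the endothelial members set SKF+Aβ+CSP-TTK21 below the other groups. The sum was 777 and 532 with SKF, 623 and 544 with SKF+Aβ, 795 and 672 with SKF+Aβ+CSP, 485 and 474 with SKF+Aβ+CSP-TTK21 and 567 and 554 with CSP-TTK21 normalized CPM. Both SKF+Aβ+CSP-TTK21 libraries lay below the other 8, and the 2 vehicle libraries and the first SKF library were the highest. The sum of the mural members was 174 and 164 with SKF, 155 and 140.4 with SKF+Aβ, 178 and 148 with SKF+Aβ+CSP, 143 and 153 with SKF+Aβ+CSP-TTK21 and 151 and 166 with CSP-TTK21 normalized CPM, which put no group apart from all others, although both SKF libraries lay above those of SKF+Aβ and SKF+Aβ+CSP-TTK21. Libraries of one group could differ as much as groups did. In SKF, 20 of the 24 tested endothelial members were higher in replicate 1 than in replicate 2, with a median ratio of 1.51 and 13 members above 1.5. Replicate 1 was also the higher for 19 members in SKF+Aβ, 19 in SKF+Aβ+CSP, 17 in CSP-TTK21 and 13 in SKF+Aβ+CSP-TTK21, by smaller median ratios of 1.18, 1.15, 1.20 and 1.01. SKF replicate 1 held the highest value of the 10 libraries for 12 of the 24 endothelial members, and every comparison with SKF is therefore also given without it. Fits with a library left out filter anew, and most test 34 members in place of 33, with Anpep added to the mural ones.

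**Figure D1:**
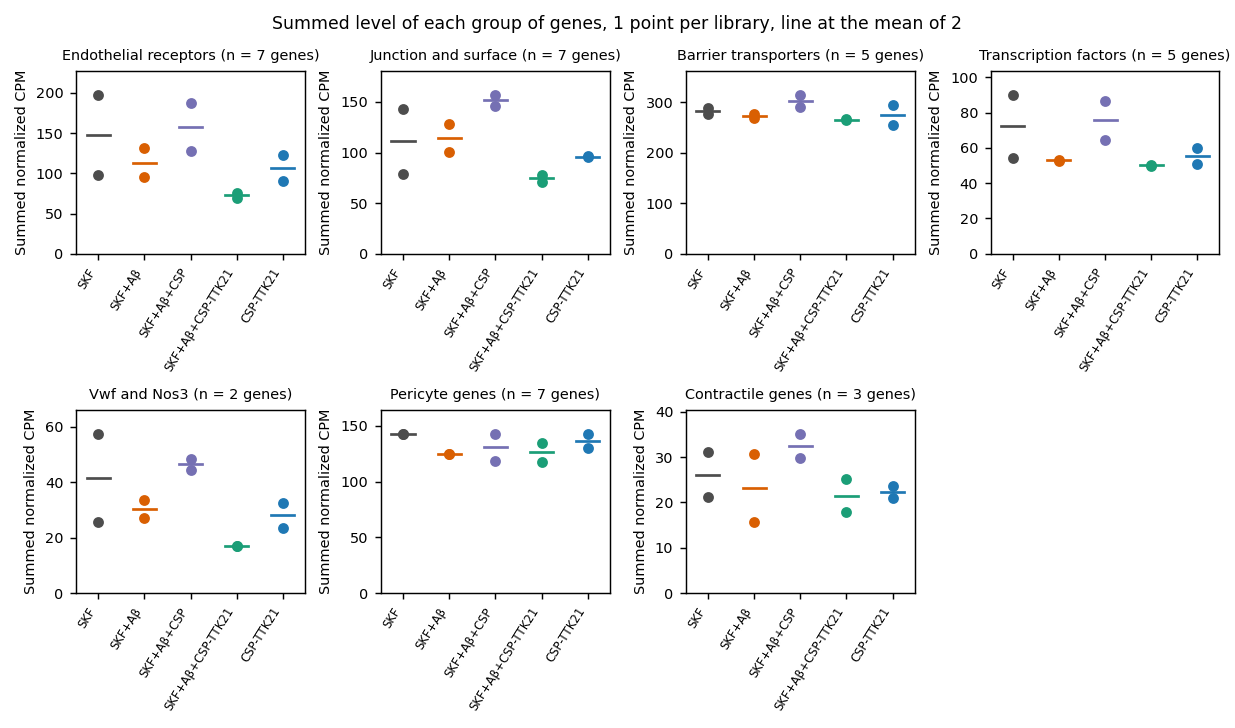
Summed normalized CPM (y axis, from 0) of 7 sets of members in the 5 groups (x axis), 1 point per library with a line at the mean of 2. Receptors, junction and surface genes and the pair Vwf and Nos3 are lowest in both SKF+Aβ+CSP-TTK21 libraries, whereas the barrier transporters run from 254 to 315 and the pericyte genes from 118 to 143 over the 10 libraries.

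Over all 5 groups together, no member differed at an adjusted p-value under 0.05 in edgeR's quasi-likelihood F test, which 0.00665% of all 15032 tested genes passed. At an unadjusted p-value under 0.05, which 14.3% of all genes reached, 13 of the 24 endothelial and 2 of the 9 mural members (Cspg4 and Notch3) differed. The lowest adjusted p was 0.144, that of Adgrl4. Limma found 0 members at an adjusted p under 0.05. DESeq2's likelihood ratio test found 5 of the 16 members to which it gave an adjusted p, beside 4.89% of all genes with one. Both SKF+Aβ+CSP-TTK21 libraries were the lowest 2 of all 10 for 7 of the 24 endothelial members (Abcb1a, Adgrl4, Egfl7, Eng, Flt1, Tie1 and Vwf) and for 0 of the 9 mural members, against 3.43% of all genes tested. No other group held the lowest 2 libraries for any member.

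**Figure D2:**
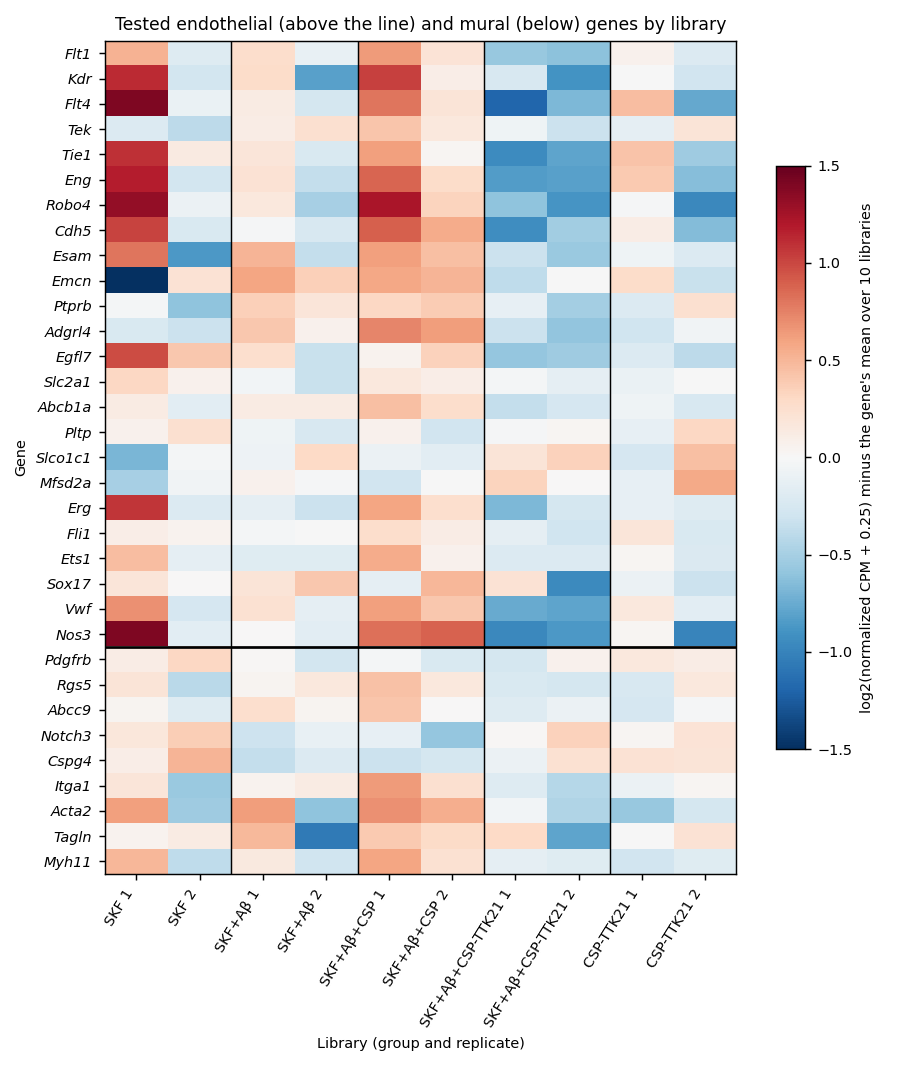
Level of each of the 33 tested members (rows) in each of the 10 libraries (columns), as log2(normalized CPM + 0.25) minus the gene's own mean, from blue (below) to red (above), endothelial genes above the heavy line and mural genes below it. Both SKF+Aβ+CSP-TTK21 columns are blue over most receptor and surface rows, SKF replicate 1 and SKF+Aβ+CSP replicate 1 are red there, and the rows of Slco1c1 and Mfsd2a run the other way.

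The comparison of SKF+Aβ+CSP-TTK21 with SKF+Aβ+CSP sets the loaded nanosphere against the empty one in slices that all received SKF and Aβ. Most endothelial members lay lower with the cargo, although no single one passed the adjusted test: 21 of the 24 had a negative log2 fold change, 20 of these without overlap between the groups, against 22.7% of all genes tested that were lower without overlap. At an unadjusted p-value under 0.05, 17 of the 24 were lower and 0 higher, where 5.61% of all genes were lower and 3.17% higher. Their median log2 fold change was -0.87, beside 0.0085 over all genes tested. No member was called with a log2 fold change past 1.5 and an adjusted p-value under 0.05, nor at an adjusted p-value under 0.05 alone, and neither was any other gene (0% under both rules). Limma likewise gave 0 members, while DESeq2's Wald test gave 6 of the 29 members with an adjusted p (Abcb1a, Adgrl4, Cdh5, Flt1, Nos3 and Vwf) under 0.05, beside 0.177% of all such genes. Of the 6, 1 was beyond the fold change limit. EdgeR fitted to only the groups compared also passed 6 (Adgrl4, Cdh5, Eng, Flt1, Nos3 and Vwf), beside 0.346% of all genes, and edgeR without the filter on low counts passed 13, beside 1.22%. The 17 became 9 without SKF+Aβ+CSP replicate 1 (4.04% of all genes lower) and 11 without SKF+Aβ+CSP-TTK21 replicate 1 or 2 (4.19% and 4.04%), and the median stayed between -0.97 and -0.80 whichever library was left out.

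**Figure D3:**
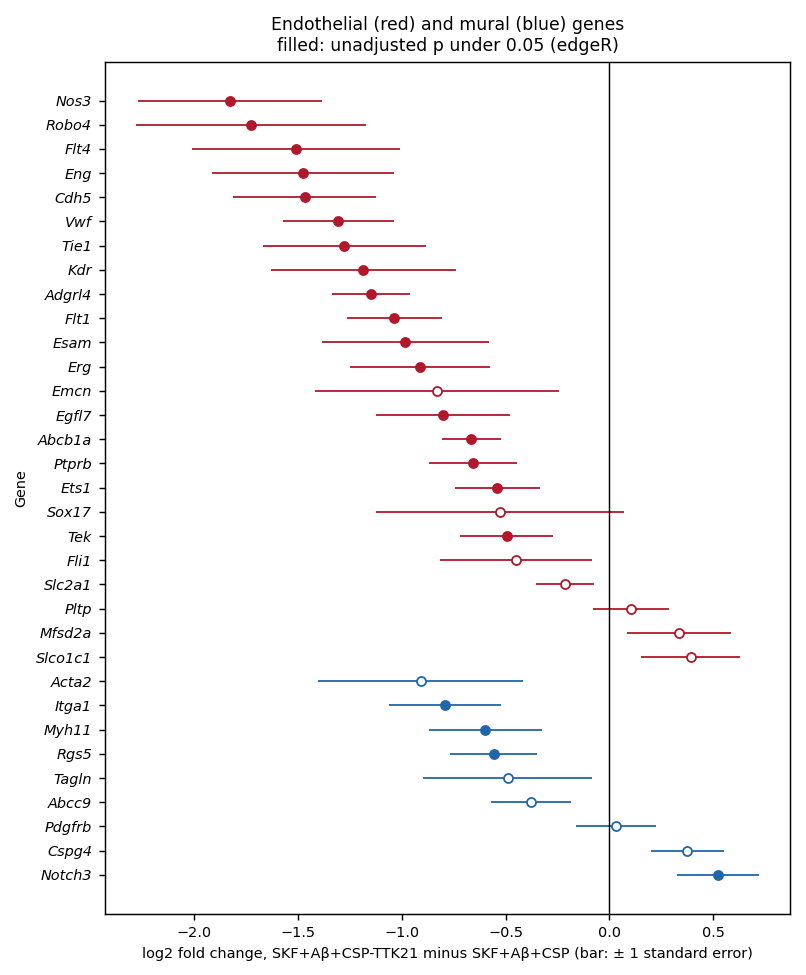
Log2 fold change (x axis) of the 33 tested members (y axis) in SKF+Aβ+CSP-TTK21 minus SKF+Aβ+CSP, with a bar of 1 standard error on each side, endothelial in red and mural in blue, filled where the unadjusted p-value of edgeR is under 0.05. Endothelial genes run from -1.83 for Nos3 to 0.39 for Slco1c1, with 3 transporters the only ones above 0.

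The endothelial receptor genes were all lower with the cargo, 7 of 7 at an unadjusted p-value under 0.05, beside 5.61% of all genes. Flt1, the VEGF receptor 1 that binds VEGF tightly and limits its action, had 75.3 and 45.7 normalized CPM with SKF, 62.8 and 48.3 with SKF+Aβ, 81.4 and 60.5 with SKF+Aβ+CSP, 35.2 and 34.2 with SKF+Aβ+CSP-TTK21 and 54.7 and 45.3 with CSP-TTK21. Both SKF+Aβ+CSP-TTK21 values lay below those of every other library, and SKF+Aβ+CSP replicate 1 was the highest. The log2 fold change of Flt1 between the loaded and the empty nanosphere was -1.04 (SE 0.23, adjusted p = 0.428), where SE is the standard error. Kdr, the VEGF receptor 2 that carries the main growth signal, had 36.4 and 13.7 normalized CPM with SKF, 20.2 and 9.37 with SKF+Aβ, 34.1 and 17.8 with SKF+Aβ+CSP, 14.0 and 8.82 with SKF+Aβ+CSP-TTK21 and 16.6 and 13.6 with CSP-TTK21. Its values spread widely within groups, the higher of the loaded-nanosphere libraries lay just above the lower SKF library, and the log2 fold change against the empty nanosphere was -1.19 (SE 0.45, adjusted p = 0.556). Flt4, the VEGF receptor 3, had 21.2 and 7.33 normalized CPM with SKF, 8.64 and 6.54 with SKF+Aβ, 13.9 and 9.07 with SKF+Aβ+CSP, 3.32 and 4.84 with SKF+Aβ+CSP-TTK21 and 10.9 and 4.53 with CSP-TTK21. The loaded and empty nanosphere did not overlap for Flt4, with a log2 fold change of -1.51 (SE 0.50, adjusted p = 0.542). Robo4, a guidance receptor made by endothelial cells, had 7.45 and 2.66 normalized CPM with SKF, 3.20 and 1.93 with SKF+Aβ, 6.95 and 3.66 with SKF+Aβ+CSP, 1.79 and 1.42 with SKF+Aβ+CSP-TTK21 and 2.81 and 1.33 with CSP-TTK21. Its log2 fold change was -1.72 (SE 0.55, adjusted p = 0.523), at levels of only a few CPM. Tie1, the partner of the angiopoietin receptor, had 18.6 and 9.46 normalized CPM with SKF, 9.75 and 7.29 with SKF+Aβ, 13.3 and 8.77 with SKF+Aβ+CSP, 4.34 and 4.84 with SKF+Aβ+CSP-TTK21 and 11.6 and 5.87 with CSP-TTK21. No other library came as low as the SKF+Aβ+CSP-TTK21 pair, and the log2 fold change against the empty nanosphere was -1.28 (SE 0.39, adjusted p = 0.523). Tek, the angiopoietin receptor itself, had 8.83 and 7.73 normalized CPM with SKF, 11.0 and 12.05 with SKF+Aβ, 13.7 and 11.4 with SKF+Aβ+CSP, 9.70 and 8.11 with SKF+Aβ+CSP-TTK21 and 9.26 and 11.7 with CSP-TTK21. Its difference was smaller than that of its partner, at -0.50 (SE 0.23, adjusted p = 0.564) on the log2 scale, and SKF replicate 2, not the loaded nanosphere, held its lowest value. Eng, endoglin, the co-receptor for BMP and TGF-beta ligands, had 24.5 and 16.1 normalized CPM with the empty and 7.27 and 7.40 with the loaded nanosphere, a log2 fold change of -1.47 (SE 0.44, adjusted p = 0.517).

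**Figure D4:**
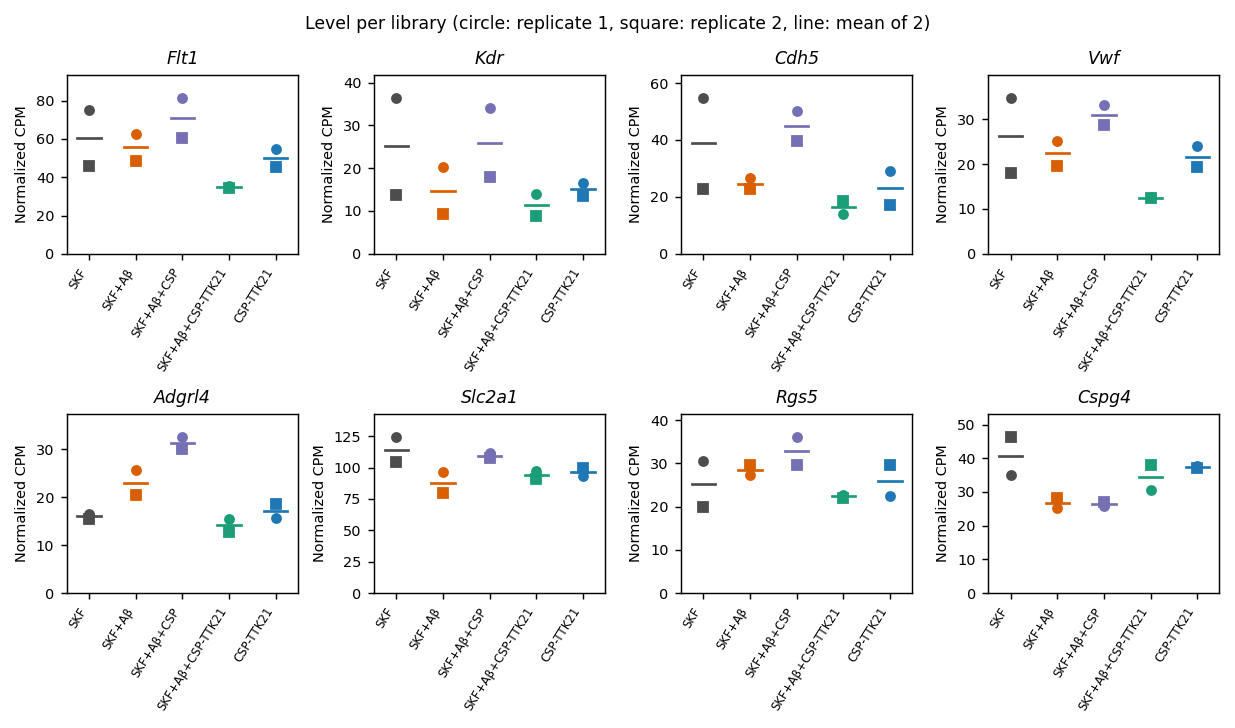
Normalized CPM (y axis, from 0) of 6 endothelial members (Flt1, Kdr, Cdh5, Vwf, Adgrl4 and Slc2a1) and 2 mural members (Rgs5 and Cspg4) in the 5 groups (x axis), circle for replicate 1, square for replicate 2 and line for the mean. The SKF+Aβ+CSP-TTK21 points of Flt1, Vwf and Adgrl4 lie below all others, for Adgrl4 only just. Slc2a1 stays between 79.4 and 124, and Cspg4 is lowest in SKF+Aβ and SKF+Aβ+CSP.

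Junction and surface genes went the same way as the receptors, 5 of 6 tested at an unadjusted p-value under 0.05, beside 5.61% of all genes. Cdh5, VE-cadherin, the adhesion protein of endothelial adherens junctions, had 54.8 and 22.9 normalized CPM with SKF, 26.5 and 22.8 with SKF+Aβ, 50.2 and 39.8 with SKF+Aβ+CSP, 14.0 and 18.6 with SKF+Aβ+CSP-TTK21 and 29.2 and 17.1 with CSP-TTK21. The libraries with the empty nanosphere lay above those with the loaded one, a log2 fold change of -1.47 (SE 0.34, adjusted p = 0.510). Adgrl4, an adhesion G protein-coupled receptor of endothelium, had 16.6 and 15.5 normalized CPM with SKF, 25.8 and 20.4 with SKF+Aβ, 32.5 and 30.1 with SKF+Aβ+CSP, 15.4 and 12.8 with SKF+Aβ+CSP-TTK21 and 15.7 and 18.7 with CSP-TTK21. This was the member with the lowest p-value of the comparison, its log2 fold change was -1.15 (SE 0.19, adjusted p = 0.254), or 2.22-fold lower. Both empty-nanosphere values of Adgrl4 were the highest of the 10 libraries and both loaded-nanosphere values the lowest. The higher loaded-nanosphere value, 15.4, was nearly level with 15.5 in SKF replicate 2 and 15.7 in CSP-TTK21 replicate 1. Ptprb, the phosphatase VE-PTP that acts on Tek and on VE-cadherin, had 34.1 and 22.9 normalized CPM with SKF, 44.9 and 39.6 with SKF+Aβ, 43.3 and 45.6 with SKF+Aβ+CSP, 31.9 and 24.3 with SKF+Aβ+CSP-TTK21 and 30.3 and 41.2 with CSP-TTK21. Its log2 fold change against the empty nanosphere was -0.66 (SE 0.21, adjusted p = 0.523). Egfl7, a secreted protein of the vessel matrix, had 11.4 and 7.59 normalized CPM with SKF, 6.83 and 4.46 with SKF+Aβ, 5.89 and 7.31 with SKF+Aβ+CSP, 3.70 and 3.84 with SKF+Aβ+CSP-TTK21 and 4.91 and 4.27 with CSP-TTK21. The SKF libraries, not those with the vehicle, held its highest values, and with the cargo it was lower than with the vehicle at -0.80 (SE 0.32, adjusted p = 0.556) on the log2 scale. Esam, an adhesion molecule at the tight junction, had a log2 fold change of -0.98 (SE 0.40, adjusted p = 0.556) and Emcn, endomucin, of -0.83 (SE 0.59, adjusted p = 0.665). Emcn was counted at only 0.276 to 2.51 normalized CPM.

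Vwf and Nos3, a clotting factor stored in endothelial cells and the endothelial nitric oxide synthase that relaxes vessels, were both lower with the cargo. Vwf had 34.8 and 18.0 normalized CPM with SKF, 25.2 and 19.6 with SKF+Aβ, 33.1 and 28.7 with SKF+Aβ+CSP, 12.6 and 12.4 with SKF+Aβ+CSP-TTK21 and 24.0 and 19.3 with CSP-TTK21. The 2 libraries with the loaded nanosphere were nearly equal and the lowest of all, and the log2 fold change against the empty nanosphere was -1.31 (SE 0.27, adjusted p = 0.336), or 2.47-fold lower. Nos3 had 22.8 and 7.59 normalized CPM with SKF, 8.50 and 7.59 with SKF+Aβ, 15.2 and 15.9 with SKF+Aβ+CSP, 4.21 and 4.55 with SKF+Aβ+CSP-TTK21 and 8.70 and 4.13 with CSP-TTK21. It had the most negative log2 fold change of the 33 members, -1.83 (SE 0.44, adjusted p = 0.510), or 3.55-fold lower, although CSP-TTK21 replicate 2, without SKF and Aβ, was as low. Among the transcription factors, Ets1 had 60.0 and 39.8 normalized CPM with SKF, 38.3 and 38.5 with SKF+Aβ, 64.1 and 45.8 with SKF+Aβ+CSP, 37.9 and 37.9 with SKF+Aβ+CSP-TTK21 and 44.6 and 37.5 with CSP-TTK21. Apart from SKF replicate 1 and the vehicle libraries, its values lay between 37.5 and 44.6, and its log2 fold change between loaded and empty nanosphere was -0.54 (SE 0.20, adjusted p = 0.556). For Erg the log2 fold change was -0.91 (SE 0.34, adjusted p = 0.556), for Fli1 -0.45 (SE 0.37, adjusted p = 0.707), and for Sox17, at 0.427 to 1.61 normalized CPM, -0.53 (SE 0.60, adjusted p = 0.790).

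Of the 5 barrier transporters, Abcb1a alone was lower with the cargo at an unadjusted p-value under 0.05, beside 5.61% of all genes. Slc2a1, the glucose transporter GLUT1, had 124 and 104 normalized CPM with SKF, 96.7 and 79.4 with SKF+Aβ, 112 and 107 with SKF+Aβ+CSP, 97.5 and 91.2 with SKF+Aβ+CSP-TTK21 and 92.9 and 99.8 with CSP-TTK21. The loaded nanosphere lay below the empty one without overlap but by little, a log2 fold change of -0.21 (SE 0.14, adjusted p = 0.642). Abcb1a, the drug efflux pump P-glycoprotein, had 92.7 and 76.5 normalized CPM with SKF, 93.1 and 92.7 with SKF+Aβ, 117 and 102 with SKF+Aβ+CSP, 66.5 and 71.6 with SKF+Aβ+CSP-TTK21 and 81.7 and 72.0 with CSP-TTK21. It was lowest in both SKF+Aβ+CSP-TTK21 libraries and highest with the empty nanosphere, with a log2 fold change of -0.67 (SE 0.14, adjusted p = 0.356). The other 3 transporters were higher with the cargo, none at an unadjusted p-value under 0.05. For Slco1c1, which carries thyroid hormone, the values were 41.4 and 39.5 normalized CPM with the empty and 50.3 and 55.9 with the loaded nanosphere, a log2 fold change of 0.39 (SE 0.24, adjusted p = 0.625). For Mfsd2a, which carries omega-3 lipids into the brain, the log2 fold change was 0.34 (SE 0.25, adjusted p = 0.680), and for Pltp, a phospholipid transfer protein, 0.10 (SE 0.18, adjusted p = 0.873). Some of these genes, Slc2a1 and Slco1c1 among them, are also made by astrocytes. The summed level of 6 astrocyte markers was 4327 and 3950 with the empty and 5192 and 5500 with the loaded nanosphere. Of the 6, 2 were higher at an unadjusted p-value under 0.05, beside 3.17% of all genes. The part of astrocytes in these values was not tested.

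Mural members were mixed with the cargo. At an unadjusted p-value under 0.05, 3 of 9 were lower (Itga1, Myh11 and Rgs5) and 1 was higher (Notch3). Of all genes, 5.61% were lower and 3.17% higher. The mural median log2 fold change was -0.49. Pdgfrb, the PDGF receptor on which pericytes depend, had 20.1 and 23.2 normalized CPM with SKF, 18.8 and 15.3 with SKF+Aβ, 18.3 and 15.8 with SKF+Aβ+CSP, 15.4 and 19.5 with SKF+Aβ+CSP-TTK21 and 20.8 and 20.1 with CSP-TTK21. The nanosphere groups overlapped, and the log2 fold change between loaded and empty nanosphere was 0.030 (SE 0.19, adjusted p = 0.969). Rgs5, a G protein regulator typical of pericytes, had 30.5 and 20.0 normalized CPM with SKF, 27.3 and 29.6 with SKF+Aβ, 36.1 and 29.7 with SKF+Aβ+CSP, 22.7 and 22.1 with SKF+Aβ+CSP-TTK21 and 22.5 and 29.6 with CSP-TTK21. It was lower with the cargo without overlap, at -0.56 (SE 0.21, adjusted p = 0.556) on the log2 scale, although SKF replicate 2 was the lowest library. Itga1, an integrin subunit for collagen, had 10.3 and 6.13 normalized CPM with SKF, 9.47 and 9.97 with SKF+Aβ, 14.4 and 10.8 with SKF+Aβ+CSP, 7.91 and 6.69 with SKF+Aβ+CSP-TTK21 and 8.56 and 9.34 with CSP-TTK21. Both vehicle libraries were its highest of the 10, and the log2 fold change was -0.79 (SE 0.27, adjusted p = 0.556). Notch3, the Notch receptor of mural cells, had 25.2 and 29.0 normalized CPM with SKF, 18.1 and 20.8 with SKF+Aβ, 20.6 and 14.9 with SKF+Aβ+CSP, 22.8 and 28.6 with SKF+Aβ+CSP-TTK21 and 23.0 and 25.9 with CSP-TTK21. It went the opposite way to the endothelial receptors, with a log2 fold change of 0.52 (SE 0.20, adjusted p = 0.556), and Cspg4, the proteoglycan NG2 of pericytes and of oligodendrocyte precursors, had 0.38 (SE 0.17, adjusted p = 0.567). Among the contractile genes, Myh11, smooth muscle myosin, had 17.2 and 9.33 normalized CPM with SKF, 13.5 and 9.82 with SKF+Aβ, 18.5 and 14.3 with SKF+Aβ+CSP, 11.1 and 10.7 with SKF+Aβ+CSP-TTK21 and 9.96 and 10.7 with CSP-TTK21. The log2 fold change of Myh11 was -0.60 (SE 0.27, adjusted p = 0.566). Acta2, smooth muscle actin, had 4.14 and 1.73 normalized CPM with SKF, 4.18 and 1.64 with SKF+Aβ, 4.36 and 3.95 with SKF+Aβ+CSP, 2.55 and 1.85 with SKF+Aβ+CSP-TTK21 and 1.68 and 2.13 with CSP-TTK21. At these few CPM its SKF replicates differed by a factor of 2.39, and the log2 fold change was -0.91 (SE 0.49, adjusted p = 0.589) between the nanospheres. That of Tagln, transgelin, was -0.49 (SE 0.41, adjusted p = 0.711), and that of Abcc9, a potassium channel subunit of pericytes, was -0.38 (SE 0.19, adjusted p = 0.573). Without SKF+Aβ+CSP replicate 1 and without SKF+Aβ+CSP-TTK21 replicate 2, the mural median was -0.27 and -0.29. These fits filtered anew and tested Anpep as well, so the genes behind the median changed together with the libraries.

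Against SKF+Aβ without any nanosphere, the endothelial median of the loaded nanosphere was again below 0 and smaller in size, although Slc2a1 was on the other side of 0. Of the 24 endothelial members, 6 were lower at an unadjusted p-value under 0.05 and 0 higher, where 4.06% of all genes were lower and 2.52% higher. These were Adgrl4, Vwf, Abcb1a, Flt1, Ptprb and Tie1. The log2 fold change was -0.71 (SE 0.19, adjusted p = 0.746) for Adgrl4, -0.84 (SE 0.27, adjusted p = 0.746) for Vwf and -0.90 (SE 0.40, adjusted p = 0.746) for Tie1. In all, 16 of 24 were lower without overlap, beside 17.7% of all genes, and the median log2 fold change was -0.59 for the endothelial and -0.10 for the mural members. All 7 receptors were lower, from -0.90 for Flt4 to -0.37 for Tek, and 4 of the 5 transporters were higher, from 0.10 for Slc2a1 to 0.16 for Pltp. None of the 9 mural members reached an unadjusted p-value under 0.05, and Pdgfrb, Rgs5 and Acta2 differed by 0.029 (SE 0.19), -0.35 (SE 0.21) and -0.40 (SE 0.51) on the log2 scale. EdgeR, DESeq2 and limma all gave 0 members at an adjusted p-value under 0.05 (0% of all genes with edgeR, with or without the fold change limit), while edgeR without the filter passed Flt1 and Vwf, beside 0.507% of all genes. Without SKF+Aβ replicate 1 the 6 became 2, where 0.992% of all genes were lower, and without SKF+Aβ+CSP-TTK21 replicate 1 or 2 they became 4 (2.56% and 3.08%). Without SKF replicate 1 or 2, which are in neither group, the count rose. The filter (34 members tested in place of 33), the scaling and the spread were then all estimated anew, and their parts were not separated.

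The comparison of SKF+Aβ+CSP with SKF+Aβ concerns the empty nanosphere, and most endothelial members were somewhat higher with it. The median log2 fold change was 0.37 for the endothelial and 0.21 for the mural members, beside -0.0071 for all genes, and 21 of the 24 endothelial members were higher. At an unadjusted p-value under 0.05, 5 were higher (Cdh5, Ets1, Adgrl4, Nos3 and Slc2a1) and 0 lower, where 1.63% of all genes were higher and 0.552% lower. Nos3 had a log2 fold change of 0.95 (SE 0.41), Cdh5 of 0.87 (SE 0.33) and Ets1 of 0.52 (SE 0.20). In these 3 genes both vehicle libraries lay above both SKF+Aβ libraries. Flt1, Kdr and Slc2a1 were higher by 0.35 (SE 0.22), 0.81 (SE 0.44) and 0.31 (SE 0.14), the first 2 with overlap. Among mural members, 0 reached an unadjusted p-value under 0.05, and the values were -0.0010 (SE 0.19) for Pdgfrb, 0.21 (SE 0.21) for Rgs5 and 0.51 (SE 0.48) for Acta2. All 3 tools gave 0 members at an adjusted p-value under 0.05 (0% of all genes with edgeR, also with the fold change limit), while edgeR without the filter passed Cdh5, beside 0.261% of all genes. The 5 became 0 without SKF+Aβ replicate 2 or without SKF+Aβ+CSP replicate 1 (1.79% and 0.967% of all genes higher), and 9 and 10 without SKF replicate 1 and 2 (1.94% and 1.90%). This comparison and the 2 before it share libraries: SKF+Aβ+CSP is the higher group here and the reference of the first.

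The SKF libraries were the reference of 4 comparisons, which therefore share them. With Aβ added, SKF+Aβ against SKF, 2 endothelial members were higher and 4 lower at an unadjusted p-value under 0.05, where 12% of all genes were higher and 10.9% lower. Adgrl4 and Ptprb were the higher ones, at 0.53 (SE 0.19, adjusted p = 0.122) and 0.57 (SE 0.21, adjusted p = 0.136), both without overlap. Slc2a1, Egfl7, Erg and Nos3 were the lower ones, with Slc2a1 at -0.38 (SE 0.14, adjusted p = 0.137) and Egfl7 at -0.75 (SE 0.30, adjusted p = 0.167). Of the mural members, Cspg4 and Notch3 were lower, by -0.60 (SE 0.17, adjusted p = 0.0761) and -0.48 (SE 0.20, adjusted p = 0.170). Cspg4 had 34.9 and 46.2 normalized CPM with SKF, 25.4 and 28.1 with SKF+Aβ, 25.9 and 26.9 with SKF+Aβ+CSP, 30.6 and 38.0 with SKF+Aβ+CSP-TTK21 and 37.8 and 37.1 with CSP-TTK21, with every SKF library above every SKF+Aβ and SKF+Aβ+CSP library. Flt1, Kdr, Pdgfrb, Rgs5 and Acta2 had log2 fold changes of -0.12 (SE 0.22), -0.75 (SE 0.44), -0.34 (SE 0.19), 0.17 (SE 0.21) and 0.00097 (SE 0.48). No member passed an adjusted p-value under 0.05 by edgeR, DESeq2 or limma, in a comparison where 2.08% of all genes did with edgeR and 0.146% did with the fold change limit. Without the filter on low counts edgeR passed 7 members (Cdh5, Cspg4, Eng, Erg, Flt4, Kdr and Nos3), beside 5.19% of all genes, and without SKF replicate 2 it passed Erg and Nos3, beside 1.11%. The median log2 fold change was -0.27 for the endothelial and -0.17 for the mural members, and it turned to 0.092 and 0.32 without SKF replicate 1. Without that library 3 endothelial members were higher and 0 lower at an unadjusted p-value under 0.05 (7.70% and 8.80% of all genes), and without SKF replicate 2, 2 were higher and 13 lower (10.9% and 9.55%). Without SKF+Aβ replicate 1, 0 were higher and 3 lower (8.32% and 8.49%), and without SKF+Aβ replicate 2, 2 were higher and 0 lower (10.3% and 10.7%).

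With Aβ and the empty nanosphere, SKF+Aβ+CSP against SKF, 4 endothelial members were higher and 0 lower at an unadjusted p-value under 0.05 (10.3% of all genes were higher and 9.03% lower). They were Adgrl4, Ptprb, Tek and Abcb1a. Adgrl4 had a log2 fold change of 0.97 (SE 0.18, adjusted p = 0.0572), Ptprb of 0.64 (SE 0.21, adjusted p = 0.138) and Tek of 0.60 (SE 0.23, adjusted p = 0.180), each without overlap between the groups. Mural Itga1 was higher at 0.62 (SE 0.27, adjusted p = 0.229), and Cspg4 and Notch3 were lower at -0.62 (SE 0.17, adjusted p = 0.101) and -0.60 (SE 0.20, adjusted p = 0.137). The values of Flt1, Kdr, Slc2a1, Pdgfrb, Rgs5 and Acta2 were 0.23 (SE 0.22), 0.062 (SE 0.42), -0.063 (SE 0.14), -0.34 (SE 0.19), 0.39 (SE 0.21) and 0.51 (SE 0.48) on the log2 scale. With edgeR 0 members passed an adjusted p-value under 0.05, as 0.0200% of all genes did, 0.0133% with the fold change limit. Adgrl4 passed with DESeq2 (adjusted p = 0.00878), as 1 of 23 members with an adjusted p, a share near the 4.62% of all such genes. It also passed with a minimum of 10 counts in every library (adjusted p = 0.0490, beside 0.418% of all genes), and without the filter Adgrl4, Cspg4 and Ptprb passed, beside 2.99% of all genes. No member passed with limma. The medians of 0.13 for endothelial and 0.31 for mural members became 0.63 and 0.54 without SKF replicate 1, and -0.17 and -0.028 without SKF replicate 2. Without SKF replicate 1, 11 endothelial members were higher and 0 lower at an unadjusted p-value under 0.05 (7.23% and 7.77% of all genes), and without SKF replicate 2, 2 were higher and 3 lower (9.79% and 6.90%). Without SKF+Aβ+CSP replicate 1, 2 were higher and 0 lower (8.09% and 7.65%).

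With all treatments together, SKF+Aβ+CSP-TTK21 against SKF, 11 endothelial members were lower and 1 higher at an unadjusted p-value under 0.05, where 8.78% of all genes were lower and 10.8% higher. Without overlap 16 of 24 were lower, beside 24.5% of all genes. The receptors Flt4, Robo4 and Tie1 had log2 fold changes of -1.81 (SE 0.50), -1.64 (SE 0.56) and -1.61 (SE 0.39), and Nos3 had -1.79 (SE 0.44, adjusted p = 0.108). The lowest adjusted p was that of Egfl7, at -1.33 (SE 0.32, adjusted p = 0.0994) on the log2 scale. The one higher member was Slco1c1 (0.59 (SE 0.24)), which had 27.2 and 43.0 normalized CPM in SKF and 50.3 and 55.9 in SKF+Aβ+CSP-TTK21. Flt1, Kdr and Slc2a1 had -0.80 (SE 0.23), -1.12 (SE 0.45) and -0.28 (SE 0.14), and Pdgfrb, Rgs5 and Acta2 had -0.31 (SE 0.19), -0.17 (SE 0.21) and -0.40 (SE 0.51). No mural member reached an unadjusted p-value under 0.05. The median log2 fold change was -0.52 for endothelial and -0.23 for mural members. At an adjusted p-value under 0.05, 0 members passed with edgeR (0.00665% of all genes did, 0% with the fold change limit), and 0 with limma. With DESeq2 3 passed (Cdh5, Flt1 and Vwf) of the 14 members with an adjusted p, beside 4.58% of all such genes, and without the filter edgeR passed 12, beside 3.57%. This count depended on the SKF libraries. Without replicate 1, 3 endothelial members were lower at an unadjusted p-value under 0.05, beside 4.48% of all genes, with a median of -0.29. Without replicate 2 there were 15, beside 9.74%, with a median of -0.89. Of these 15, 10 passed an adjusted p-value under 0.05, which 2.14% of all genes did in that fit.

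CSP-TTK21 alone against SKF differs in the loaded nanosphere and in SKF at once, and these cannot be told apart. Of the endothelial members 5 were lower (Egfl7, Nos3, Robo4, Erg and Cdh5) and 0 higher at an unadjusted p-value under 0.05, where 3.63% of all genes were lower and 4.16% higher. Of these, Egfl7 alone did not overlap between the groups, with a log2 fold change of -1.05 (SE 0.31, adjusted p = 0.633). Nos3 had -1.24 (SE 0.42, adjusted p = 0.633), with the second SKF library below the first CSP-TTK21 library. The levels of Flt1, Kdr, Slc2a1, Pdgfrb, Rgs5 and Acta2 differed by -0.27 (SE 0.22), -0.73 (SE 0.44), -0.25 (SE 0.14), -0.083 (SE 0.19), 0.048 (SE 0.21) and -0.61 (SE 0.52) on the log2 scale. The medians were -0.28 for endothelial and -0.083 for mural members, and 0.035 and 0.096 without SKF replicate 1. Without that library 2 endothelial members were higher and 0 lower at an unadjusted p-value under 0.05 (2.27% and 2.56% of all genes). Without SKF replicate 2 there were 3 and 14 (6.18% and 4.94%), and without CSP-TTK21 replicate 2 there were 0 and 1 (1.19% and 0.878%). EdgeR, DESeq2 and limma gave 0 members at an adjusted p-value under 0.05, and edgeR gave 0% of all genes with and without the fold change limit. Without the filter edgeR passed Cdh5 and Nos3, beside 0.622% of all genes.

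**Figure D5:**
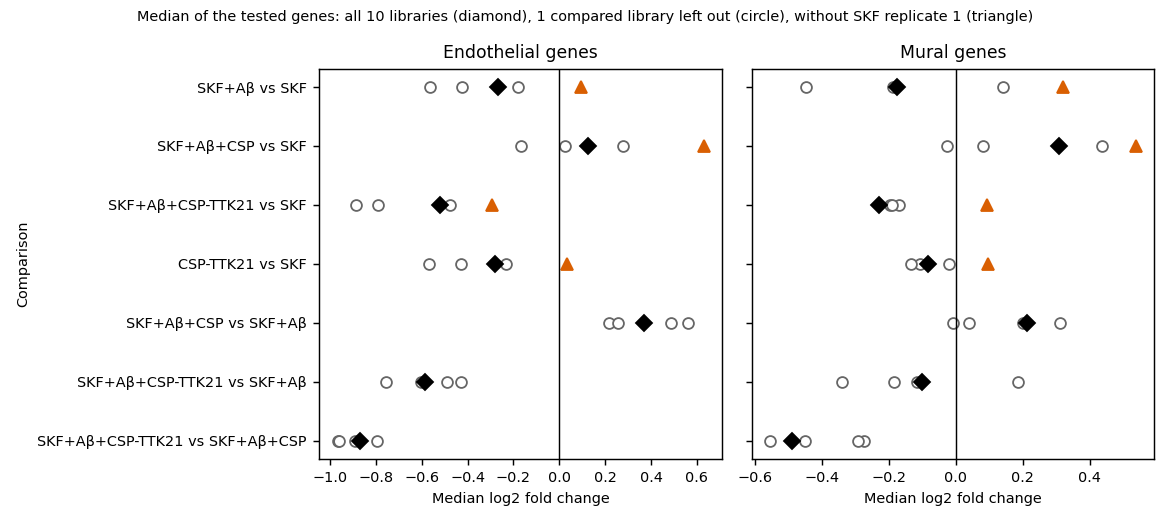
Median log2 fold change (x axis) of the tested endothelial (left) and mural (right) members in each of the 7 comparisons (y axis), with all 10 libraries (diamond), with 1 library of the groups compared left out (circles) and without SKF replicate 1 (orange triangle). The endothelial medians of SKF+Aβ+CSP-TTK21 lie below 0 against all 3 references in every case shown, whereas those of SKF+Aβ, SKF+Aβ+CSP and CSP-TTK21 against SKF change sign with an SKF library.

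Genes that act with the members were counted from lists of their partners. Of 28 tested vascular signals, such as VEGF, angiopoietin, Notch and endothelin genes, 1 was lower (Dll4, a Notch ligand of tip cells, -1.45 (SE 0.67)) and 1 higher (Apln, apelin, 0.60 (SE 0.25)) with the loaded against the empty nanosphere at an unadjusted p-value under 0.05, where 5.61% of all genes were lower and 3.17% higher, and the median was 0.0070. Of 21 further barrier genes, 3 were lower (the junction scaffold Tjp1, -0.32 (SE 0.15), the Wnt receptor Fzd6, -0.89 (SE 0.36), and the pump Abcc4, -0.49 (SE 0.21)) and 0 higher, with a median of -0.084. Of 9 tested genes of endothelial activation, 4 were lower and 0 higher, with a median of -0.69. Selp, P-selectin, was one of them, with 6.01 and 7.31 normalized CPM with the empty and 1.15 and 0.996 with the loaded nanosphere (-2.61 (SE 0.70)). Thbd, thrombomodulin, differed by -0.69 (SE 0.26). Of 13 tested partners of the contractile genes, 2 were lower (Myl9, -0.84 (SE 0.37), and Cald1, -0.54 (SE 0.19)) and 0 higher, with a median of -0.46. Over all 7 comparisons, 1 gene of these 4 lists passed an adjusted p-value under 0.05, in the comparison where 2.08% of all genes did. This was Tgfb1, the growth factor TGF-beta 1, which fell in SKF+Aβ against SKF, from 21.8 and 26.9 to 9.61 and 11.2 normalized CPM, a log2 fold change of -1.23 (SE 0.24, adjusted p = 0.0359).

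Markers of other cells that a CA1 sample can hold were measured in the same libraries, as the sum of each list. Of 7 fibroblast markers, 5 were tested, and Col1a2 had 0 counts in every library. The markers summed to 44.3 and 85.3 normalized CPM with the empty and 38.8 and 44.5 with the loaded nanosphere. Of the 5, 3 were lower with the cargo at an unadjusted p-value under 0.05, beside 5.61% of all genes. Microglia markers summed to 90.6 and 73.9 and 102 and 158 in those groups, and 1 of 6 was higher, beside 3.17% of all genes. Of 6 oligodendrocyte markers, 4 were lower in SKF+Aβ against SKF (10.9% of all genes) and 5 were higher in SKF+Aβ+CSP-TTK21 against SKF+Aβ (2.52%) at an unadjusted p-value under 0.05, and 0 differed between the loaded and the empty nanosphere. Neuron markers ranged from 3496 to 4690 over the 10 libraries, oligodendrocyte markers from 10896 to 24876, dentate gyrus markers from 198 to 300.5, choroid and ependymal markers from 2.28 to 12.9 and blood markers from 61.6 to 89.7. In SKF, where replicate 1 was high in endothelial genes, oligodendrocyte markers were 16176 and 23904, microglia markers 94.6 and 165 and astrocyte markers 4075 and 5488 in replicates 1 and 2, each lower in replicate 1. None of these lists held a gene at an adjusted p-value under 0.05 in any of the 7 comparisons, and their part in the endothelial values was not tested.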

How the data were processed

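RNA-seq of CA1 was analysed in 10 libraries of 5 groups, grouped and numbered by their labels. The members and gene lists were chosen with earlier results of these data known. The deposited values are raw counts per Ensembl gene and library, neither normalized nor pooled by the authors. The paper's methods give a stranded kit, Trim Galore, duplicate removal with Samtools, TopHat2 and Cufflinks, and name both Rnor_6.0 and mm10, whereas the submitters' processing notes name STAR, RSEM, HISAT2, Salmon and GRCh38. The counting program, its annotation and its strand setting are not given in the sources used here, so overlapping genes, near-identical copies and genes at 0 are uncertain.

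After filterByExpr (15032 of 32545 genes kept) and TMM scaling, edgeR 4.0.16 in R 4.3.3 fitted one quasi-likelihood model with a mean per group to all 10 libraries, unpaired as in the paper's design. Benjamini-Hochberg adjustment covered all genes tested, in 7 comparisons and over the 5 groups. Genes with a log2 fold change past 1.5 and an adjusted p-value under 0.05 were called. Over the 5 groups the limit was an adjusted p-value under 0.05 alone. With 2 libraries against 2, an exact permutation test of one gene cannot reach a p-value under 0.05. Replicates were not duplicates (chi-square of 4.73 to 12.1 per degree of freedom), but the labels do not say that they came from separate animals. Floors cover counting error only.

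Values per library are given for Flt1, Kdr, Cldn5, Slc2a1, Pdgfrb, Rgs5 and Acta2 and, in each comparison, for up to 3 endothelial and 2 mural members with an unadjusted p-value under 0.05 and no overlap, by size of the log2 fold change. Every member is named, with fuller values for some chosen after their values had been seen. Genes of the other lists are named by the same limits, up to 3 a list, or at an adjusted p-value under 0.05. One gene that these limits name is not reported here. The rule also named Pecam1, which is not analysed here. On simulated counts with 200 of 14807 genes changed 2-fold between the nanosphere groups, 134 were called at an adjusted p-value under 0.05, 125 of them truly changed. The changed genes were drawn from the better counted ones. Each gene was drawn on its own, without the shifts that many genes of a real library share. The simulation therefore does not tell what share of 2-fold changes would be found in the real counts. Alternatives were the replicate number as a block, RLE factors, leaving out the filter, at least 10 counts in each library, DESeq2 1.42.0, limma 3.58.1 on log2 CPM (prior count 2), a fit of only the groups compared, other call limits and each library left out. Counts at an unadjusted p-value under these alternatives, and the pairs of lowest libraries, were added after the data had been seen.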

Additional observations from a re-analysis of the deposited data

How the results depend on the processing

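The endothelial median was lower in SKF+Aβ+CSP-TTK21 than in each of its 3 references under every alternative run, but whether single members passed an adjusted p-value depended on the fit. In the main fit 0 members were called in every comparison. With the limits at an unadjusted p of 0.05 and a log2 fold change of 1, 10 were called in SKF+Aβ+CSP-TTK21 against SKF (3.20% of all genes), 10 against SKF+Aβ+CSP (2.30%), and 3 in CSP-TTK21 against SKF (1.28%). Without a filter on low counts, 4 were called against SKF (0.475%), 3 against SKF+Aβ+CSP (0.333%) and 16 over the 5 groups (5.55%), and 11 instead of 6 endothelial members were lower than in SKF+Aβ at an unadjusted p-value under 0.05 (3.84%). DESeq2 called 1 against SKF+Aβ+CSP (0.0484%) and 5 over the 5 groups (4.89%). A fit of only the groups compared called 1 against SKF+Aβ+CSP (0.0899%) and put 10 endothelial members lower than in SKF+Aβ (3.64%). The cause of these shifts was not tested.

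The replicate number as a block called 1 member in SKF+Aβ+CSP-TTK21 against SKF (0.126%) and 0 elsewhere. At an adjusted p-value under 0.05 alone, Eng, Tie1 and Vwf passed against SKF with the block (0.718% of all genes) and Adgrl4, Flt1 and Vwf against SKF+Aβ+CSP (0.0931%). At an unadjusted p-value under 0.05 the block put 10 endothelial members instead of 4 lower in SKF+Aβ against SKF (11.5% of all genes), 9 instead of 5 lower in CSP-TTK21 against SKF (4.25%), and 11 instead of 5 higher in SKF+Aβ+CSP against SKF+Aβ (2.13%). The labels do not say that a number marks shared animals, and same-numbered libraries deviated from their group means with correlations of -0.069 to 0.24 across genes over 7 comparisons, so whether the numbers pair the samples was not settled.

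With 1 library left out, the members called ranged from 0 to 7 in SKF+Aβ+CSP-TTK21 against SKF (7 without SKF replicate 2, beside 0.461%) and from 0 to 1 over the 5 groups. The endothelial members lower at an unadjusted p-value under 0.05 ranged from 3 to 15 against SKF (4.36% to 10.1% of all genes), 2 to 11 against SKF+Aβ (0.992% to 7.42%) and 9 to 17 against SKF+Aβ+CSP (3.10% to 6.31%). The endothelial median log2 fold change against SKF ranged from -0.56 to 0.092 in SKF+Aβ, -0.17 to 0.63 in SKF+Aβ+CSP, -0.89 to -0.29 in SKF+Aβ+CSP-TTK21 and -0.57 to 0.035 in CSP-TTK21. The mural median against SKF ranged, in the same order, from -0.45 to 0.32, -0.028 to 0.54, -0.24 to 0.093 and -0.14 to 0.096. It ranged from -0.0081 to 0.31 in SKF+Aβ+CSP against SKF+Aβ, from -0.34 to 0.19 in SKF+Aβ+CSP-TTK21 against SKF+Aβ and from -0.56 to -0.27 against SKF+Aβ+CSP. The 25 log2 fold changes of members described by rule kept their sign under the alternatives run, with 402 values still above and 18 below an adjusted p-value of 0.05 and 5 without one. These 25 had been picked for groups without overlap in the same libraries. A change of sign was therefore hardly possible, and their kept sign is no test. Depth limits members at a few normalized CPM, Emcn, Sox17, Fli1, Robo4 and Acta2 among those tested.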
